A study of Solanum lycopersicum with 84 samples.

Results

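The 200 genes described here are tomato seed genes whose transcripts were found mainly in the seed coat and were most abundant there at 49 days after flowering (DAF). They were chosen on the measured values themselves. Levels were taken as CPM, a gene's count scaled to a fixed library total, and averaged over the 3 libraries of each tissue and stage. A gene qualified when its highest seed coat mean was above 1 CPM and at least 10 times its highest mean in embryo and in endosperm, with 49 DAF the highest of the 3 seed coat stages. Of 33976 genes in the table, 1575 were seed coat-preferential in this sense, and 752 of these were highest at 49 DAF, against 350 at 35 DAF and 473 at 42 DAF. The members are the 200 of these 752 with the highest mean at 49 DAF. Because the rule used the seed coat, embryo and endosperm libraries, their values are given below as a description without a test. The whole seed libraries, which the rule did not use, are tested. The spread of each gene in that test was estimated over all libraries, those of the rule included.

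The study followed seeds of Solanum lycopersicum cv. Moneymaker, with no treatment or genotype contrast, from plants grown in a greenhouse in 2 seasons, which the labels do not assign to libraries. Seeds were taken entire at 15, 21 and 28 DAF, seed coats dissected by hand were sampled at 35, 42 and 49 DAF, and embryos and endosperms from the same 3 ages on. Embryos and endosperms were followed further through fruit ripening, at 56 (mature green, MG), 63 (breaker, B), 67 (pale orange, PO), 70 (orange, O), 72 (dark orange, DO), 76 (red, R), 83 and 90 DAF (red plus 7 and 14 days, R7 and R14). Each group held 3 libraries, each a pool of seeds, and libraries held 20634792 to 22506572 counts in seed coats, 16908779 to 21831199 in whole seeds, 20094832 to 22734330 in embryos and 18506050 to 21997000 in endosperms. At this depth 3 counts correspond to between 0.132 and 0.177 CPM, a limit that covers counting error only. The seed coat was not sampled after 49 DAF, so that 49 DAF is the last of 3 ages and not necessarily the age of the highest level. The authors report that at around this age intact RNA could no longer be obtained from seed coats. They propose that the demise of the tissue belongs to late maturation.

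The seed coat is the maternal tissue that encloses the endosperm and the embryo, and it develops from the integuments of the ovule. During maturation its cells lay down phenolic compounds, among them proanthocyanidins (condensed tannins) and lignin, thicken or loosen their walls, and finally die, leaving a protective layer that limits the entry of water and microbes. In tomato the outer layer also carries the hair-like wall remnants of the seed surface, and the seed lies in the gelatinous locule of the fruit until release. Seeds too young for dissection contain this tissue together with embryo and endosperm, and a change in a whole seed can come from fewer cells of the seed coat as well as from less RNA of a gene per cell, which cannot be told apart here.

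The labelled tissue was checked against short marker lists. Solyc06g064840.4.1, 1 of 2 identifiers kept as seed coat markers, had a mean of 229, 364 and 261 CPM in seed coats of 35, 42 and 49 DAF against 0.549 CPM in embryo and 3.63 CPM in endosperm at 49 DAF, while the other, Solyc11g028020.3.1, was at 0 in each of these groups. Both genes of the embryo list, SlABI4-1 and SlABI4-2, summed to 0.802 to 3.03 CPM in seed coats of 49 DAF against 51.7 to 70.3 CPM in embryos of that age. The 4 regulators of seed filling, SlFUSCA3, SlWRI1, SlABI3-1 and SlABI3-2, summed to 6.32 to 10.1 CPM in seed coats of 49 DAF, against 186 to 202 CPM in endosperms, a difference that lay in both SlABI3 genes, since SlFUSCA3 and SlWRI1 had means of 0.390 and 0.641 CPM in seed coats and 0.388 and 0.683 CPM in endosperms. The 3 libraries of 42 DAF stood far apart from each other, and the endosperm libraries of 49 DAF and MG differed among themselves in their content of the members, as described below.

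At the edges of the rule, the lowest member had a 49 DAF mean of 161.0 CPM, and the genes at ranks 201 and 202, Solyc04g011340.3.1 and Solyc03g025850.3.1, had 160.7 and 157 CPM. The smallest ratios of seed coat to inner tissue among the members were 10.2 for Solyc10g081980.2.1 and 10.4 for Solyc09g007920.4.1, and Solyc09g009590.1.1 and Solyc08g079710.3.1 just missed with 9.94 and 9.92. For the stage, Solyc12g042380.2.1 and Solyc08g066800.4.1 were members with a 49 DAF mean only 1.006 and 1.009 times that of 42 DAF. Solyc12g056820.2.1 was not, with means of 166 and 163 CPM at 42 and 49 DAF, nor was Solyc02g062460.4.1, with 1139 and 1092 CPM. The stage limit thus separates genes that barely differ, whereas the median ratio of seed coat to inner tissue was 30.5 and the largest 1293.

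Together the members took up a larger part of the seed coat's transcripts at each later age. Their summed level was 24552, 23255 and 24209.8 CPM in the 3 libraries of 35 DAF, 121340.0, 69830.3 and 43448 CPM at 42 DAF and 202107, 250309 and 240665 CPM at 49 DAF. The means of 24006 ± 672, 78206 ± 39616 and 231027 ± 25505 CPM (SD, n = 3) correspond to 2.40%, 7.82% and 23.1% of all counts. At 49 DAF a large part of the sequenced transcripts in the seed coat thus came from these genes, and the 3 stages did not overlap. In whole seeds, the members summed to 23275, 23653 and 25208 CPM in the libraries of 15 DAF, 24268, 26047 and 25877 CPM in those of 21 DAF and 19481, 17397 and 19246 CPM in those of 28 DAF. By library totals they were already present in young seeds at about the level of the seed coat of 35 DAF, and lowest at 28 DAF. Both readings depend on the scaling. The mean TMM factors, by which CPM is divided, were 1.62, 1.47 and 1.25 in whole seeds of 15, 21 and 28 DAF. In seed coats of 35 DAF the mean factor was 0.772. Scaling by them lowers the whole seed sums, most at 15 DAF, and raises that of 35 DAF. The 10 most abundant members held 44.8% of the sum at 49 DAF, and the most abundant alone 16.8%.

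**Figure D1:**
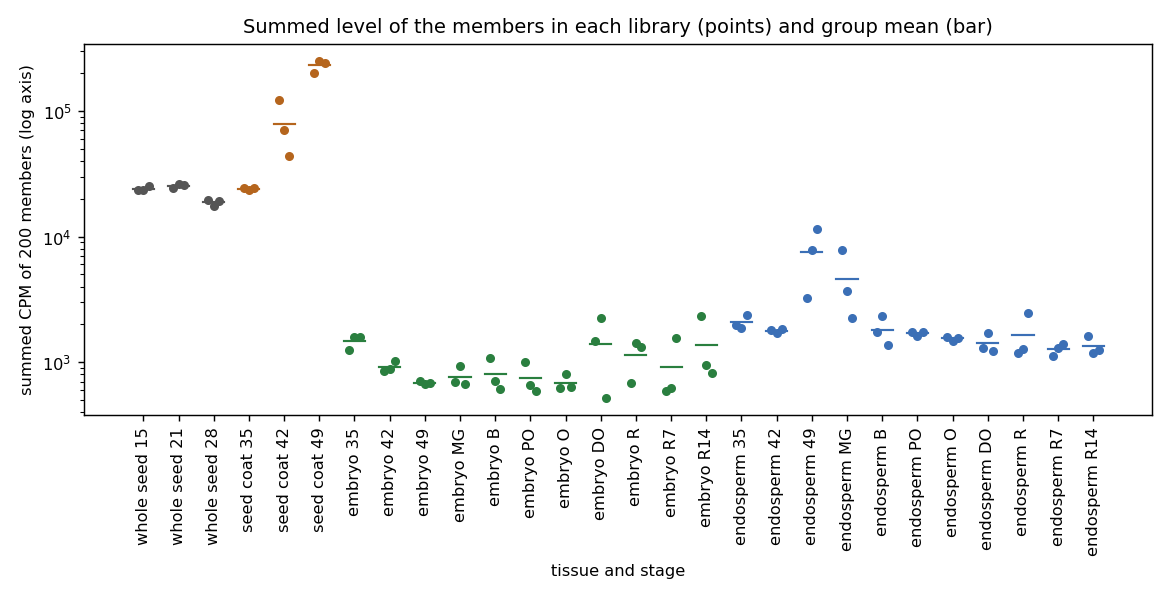
Summed CPM of the 200 members (vertical log axis) in each of the 84 libraries (points, replicates 1 to 3 from left to right) and its group mean (bars) by tissue and stage. Seed coats of 49 DAF lie between 202107 and 250309 CPM, embryos never above 2341 CPM, and endosperms of 49 DAF and MG spread up to 11472 CPM.

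The most abundant member, Solyc04g150160.1.1, was nearly absent from young seeds and dominated the seed coat of 49 DAF. It stood at 27.5, 14.8 and 17.2 CPM in the libraries of 35 DAF, 6083, 1411 and 588 CPM at 42 DAF and 27593, 44526 and 44473 CPM at 49 DAF, and at no more than 2.23 CPM in a whole seed. The libraries of the 3 seed coat stages did not overlap, and the means of 42 and 49 DAF differed by a factor of 14.4. Solyc04g150161.1.1, whose identifier has the next number, followed a different course. It was at 3343, 3776 and 4919 CPM in whole seeds of 15 DAF, 379, 515 and 529 CPM in seed coats of 35 DAF, 494, 126 and 119 CPM at 42 DAF and 6758, 11623 and 9585 CPM at 49 DAF. It was thus abundant in young seeds, low in the seed coat of 42 DAF and highest at 49 DAF. No function of either gene is annotated in the sources used here.

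Solyc10g075100.2.1, in second place, had 1266, 1178 and 1245 CPM at 35 DAF, 16840.2, 9198 and 4050.0 CPM at 42 DAF and 18998, 15782 and 14511 CPM at 49 DAF. Its first library of 42 DAF lay inside the range of 49 DAF, so that the stages overlapped. Solyc09g098510.3.1 had 766, 628 and 516, then 8790.5, 4091 and 2181, then 10951, 9092 and 10124 CPM, and in whole seeds of 15 DAF already 2313, 2235 and 2437 CPM, more than in the seed coat of 35 DAF. Solyc09g007920.4.1 had 595, 514 and 637 CPM at 35 DAF, 1067, 368 and 378 CPM at 42 DAF and 4627, 8798 and 7823 CPM at 49 DAF, late and without overlap with the earlier stages. Solyc02g068620.1.1, described as an unknown protein, had 7355, 3282 and 1346 CPM at 42 DAF and 7339, 4346 and 4327 CPM at 49 DAF. As for Solyc10g075100.2.1, the first library of 42 DAF reached the level of 49 DAF. Solyc04g071610.4.1 was the flattest of these genes, with 3691, 3480.4 and 4189 CPM at 35 DAF, 3232, 3323 and 2965 CPM at 42 DAF and 3956, 5811 and 5019 CPM at 49 DAF.

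The other 8 of the 15 leading members had 49 DAF means between 2574 CPM (Solyc10g086180.2.1) and 4571 CPM (Solyc10g081510.2.1). Solyc02g093270.4.1 and Solyc10g086180.2.1 were late, with means at 42 DAF of 158 and 196 CPM, and at 49 DAF of 2819 and 2574 CPM. Solyc06g150137.1.1 (ratio of the 49 and 42 DAF means 7.31) and Solyc10g081510.2.1 (5.75) were intermediate, and the ratio was 2.80 for Solyc11g011380.2.1, 2.64 for Solyc03g033690.2.1, 1.70 for Solyc04g080960.4.1 and 1.15 for Solyc02g081190.4.1. In 11 of the 15 leading members the 3 libraries of 49 DAF lay above all libraries of 35 and 42 DAF. Replicate 1 was the highest library of 42 DAF in 14 of the 15 and the lowest of 49 DAF in 10. CPM is not corrected for transcript length, so the order of the members is an order of their share of the counts and not of molecules.

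**Figure D2:**
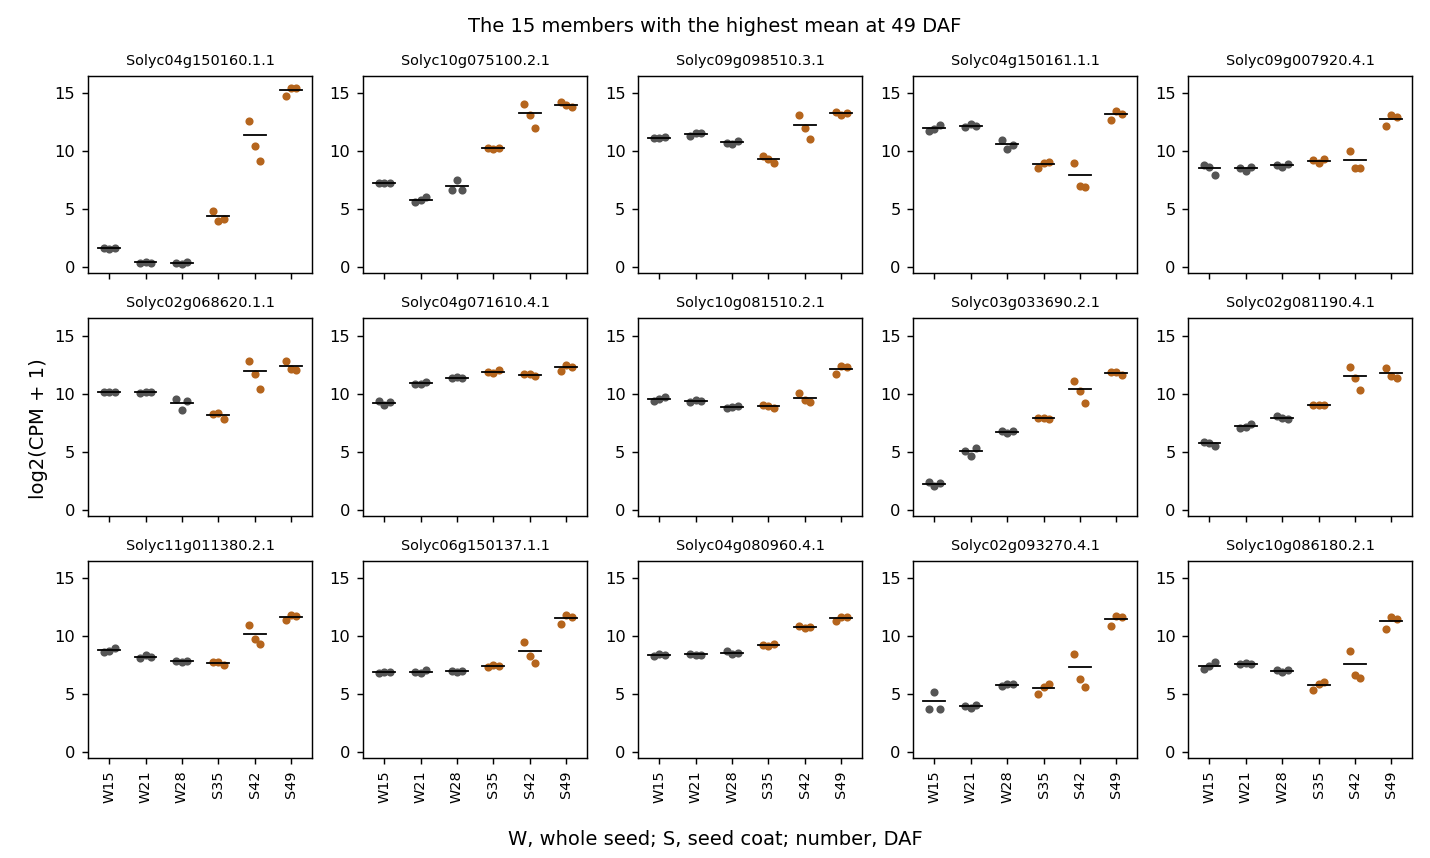
Level of the 15 members with the highest 49 DAF mean, as log2(CPM + 1), in whole seeds of 15, 21 and 28 DAF (grey points, W) and seed coats of 35, 42 and 49 DAF (brown points, S), with 3 libraries per group from replicate 1 on the left to replicate 3 on the right and the log2 of the mean as a bar. Solyc04g150160.1.1 spans the widest range, from 0.306 CPM in whole seeds of 28 DAF to 38864 CPM at 49 DAF, and Solyc04g071610.4.1 is almost level in the seed coat.

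By the size of the steps between the seed coat stages, the members were sorted into 5 courses, with a factor of 2 between means as the limit. In 80 members both steps were at least 2-fold upward, with median levels of 19.4, 124 and 531 CPM at 35, 42 and 49 DAF. In 61 the first step alone reached this size (50.6, 335 and 457 CPM), so that their mean at 42 DAF was near that of 49 DAF. In 25 the second step alone did (77.5, 112 and 567 CPM), and in 20 neither did (133, 197 and 269.6 CPM). The last 14 had a lower mean at 42 than at 35 DAF (279, 154 and 521 CPM), and Solyc04g150161.1.1 was among them. Members with large steps throughout had a low level at 35 DAF, while those with a late or a small step started several times higher. The courses were sorted on these same means, so this difference largely follows from the sorting. The mean of 42 DAF also joins libraries that differed. In the 5 courses, in the order given, the ratio of replicate 1 to replicate 3 had medians of 4.73, 2.37, 2.38, 1.09 and 1.19.

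Over the 200 members, the ratio of the 49 to the 42 DAF mean had a median of 2.43 (quartiles 1.54 and 4.52), was above 10 in 23 and under 1.5 in 48. The ratio of 49 to 35 DAF had a median of 10.5 and was above 10 in 106 and above 100 in 18. In 147 members the 3 libraries of 49 DAF lay above all earlier seed coat libraries, and in 53 they overlapped with them. Among all 24676 genes tested, 11.2% had no such overlap, but the rule itself selected for it, so the member count is a description only. When levels were scaled by TMM factors, 196 of the 200 members were still highest at 49 DAF, 176 were still at least 10-fold above the inner tissues, 172 were still in the rule's set, and the median ratio of 49 to 35 DAF was 7.21.

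**Figure D3:**
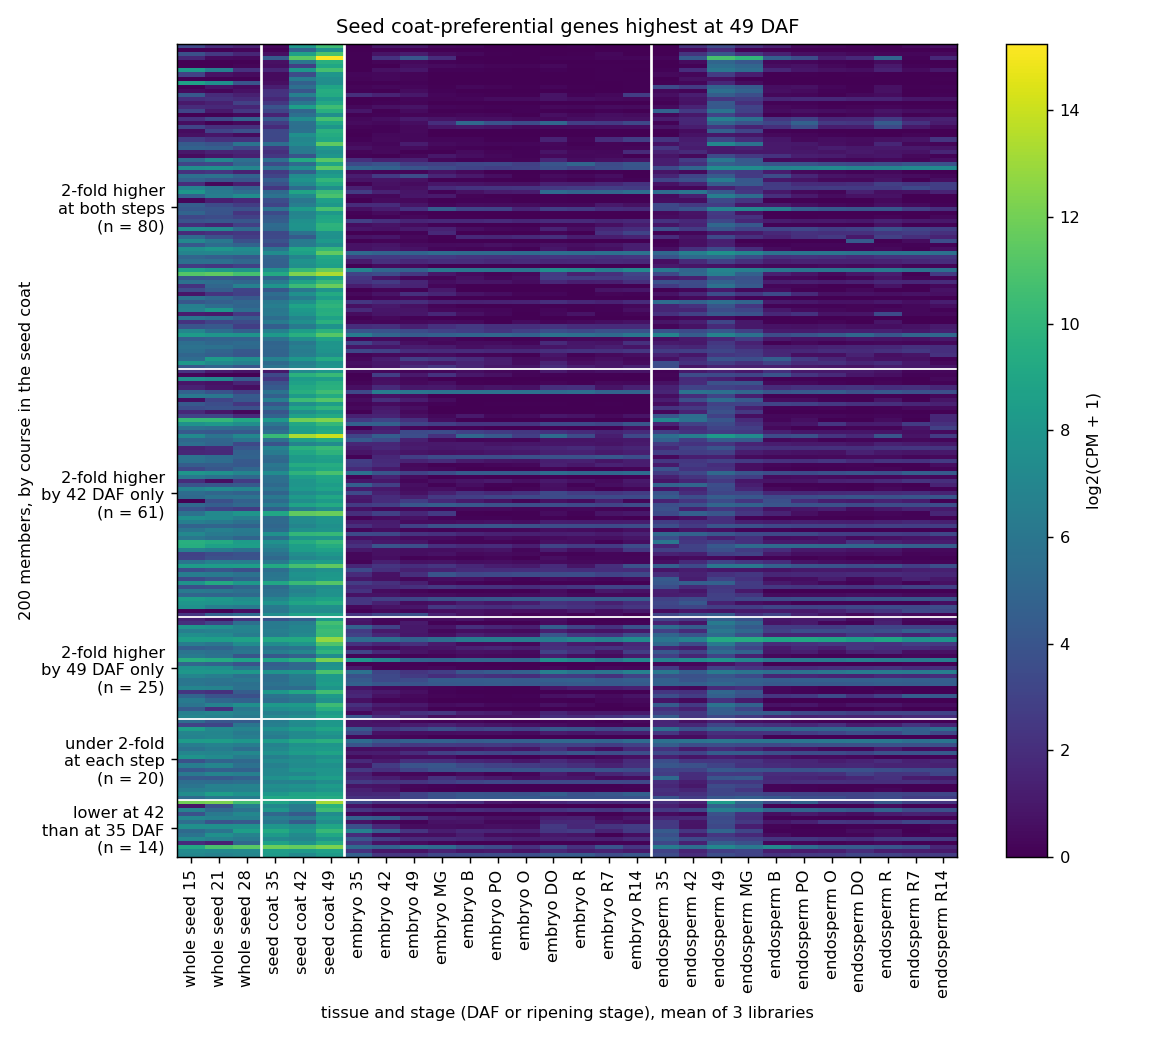
Mean level of each of the 200 members (rows) in the 28 groups of tissue and stage (columns, 3 libraries each), as log2(CPM + 1) by colour. Rows are grouped by course in the seed coat and, within a course, ordered by the ratio of 49 to 35 DAF. The endosperm columns of 49 DAF and MG are brighter than the other endosperm columns for many rows, and whole seed levels are higher in the 3 lower blocks.

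The 5 members with the largest step to 49 DAF differed in how low they were at 42 DAF. Solyc08g006730.1.1 had 0.360, 0.313 and 0.844 CPM at 35 DAF, 18.8, 0.0924 and 0.504 CPM at 42 DAF and 243, 680.2 and 645 CPM at 49 DAF, a ratio of 80.8 between the last means. At 42 DAF it came almost entirely from replicate 1. Solyc01g097470.4.1 had 37.4, 6.01 and 2.61 CPM at 42 DAF and 482, 826 and 758 CPM at 49 DAF, and Solyc02g093250.3.1 had 82.5, 7.22 and 2.69 and then 560.2, 967 and 834 CPM. Solyc04g079890.4.1 had 0.405, 0.493 and 0.267 CPM at 35 DAF, 26.7, 4.44 and 1.47 CPM at 42 DAF and 159, 341 and 285 CPM at 49 DAF. With Solyc04g150161.1.1 these are the 5 members of the largest ratio, and in all of them replicate 1 was the highest library of 42 DAF and the lowest of 49 DAF.

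Replicates at 49 DAF varied moderately. The coefficient of variation of the 3 libraries had a median of 16.2% over the members and a maximum of 46.5%, reached by Solyc08g006730.1.1. Solyc02g077080.3.1 (121, 251 and 338 CPM, 46.2%) and Solyc08g081620.4.1 (648, 1322 and 1781 CPM, 45.6%) came next. Replicate 1 was the lowest library in 128 of 200 members, with a median of 0.869 times the group mean. It was the lowest in 25 of 25 members with a late step and in 13 of 14 with a minimum at 42 DAF, but in 16 of 61 with an early step. Replicate 1 of 49 DAF therefore held less of the late members and about as much of the early ones (median 1.02 times the group mean), and the source of this difference was not tested.

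At 42 DAF the libraries differed much more. The coefficient of variation had a median of 50.8% over the members, against 17.3% over the 17727 genes with a mean above 1 CPM at that stage. Replicate 1 was the highest in 156 members and replicate 3 the lowest in 163, and the medians of the ratio to the group mean were 1.52, 0.904 and 0.556. The summed level of replicate 1 was 2.79 times that of replicate 3. The 200 most abundant of the seed coat-preferential genes highest at 35 DAF, taken by the same rule for that age, lay in the opposite order, with 12654, 85729 and 173196 CPM in the same 3 libraries and medians of 0.530, 0.885 and 1.45. Those genes summed to 433956, 444439 and 433545 CPM at 35 DAF and 13539, 26735 and 22491 CPM at 49 DAF. Of the 42 DAF libraries, replicate 1 thus lay nearest to 49 DAF in both sets of genes and replicate 3 nearest to 35 DAF. The labels give all 3 libraries the same age, and why they differ was not tested. Without replicate 1 the members summed to a mean of 56639 CPM at 42 DAF.

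Whole seeds of 15 to 28 DAF were tested to ask how the members behaved before the seed coat could be dissected. From 15 to 28 DAF, 43 of 200 members rose and 31 fell by the thresholds used (edgeR quasi-likelihood test on all libraries, absolute log2 fold change above 1 and Benjamini-Hochberg adjusted p under 0.05). Among all 24676 genes tested, 11.6% rose and 11.4% fell, against 21.5% and 15.5% of the members. An unadjusted edgeR p under 0.05, with no fold threshold, was found in 97 of the 200 members and in 48.5% of all genes. By that measure the members did not stand out from all genes. The members' median log2 fold change was 0.14 (quartiles -0.77 and 1.32), beside -0.05 (-0.61 and 0.52) over all genes. The split depended on the scaling. When scaled by library totals alone, which moved the median of all genes by -0.37 on the log2 scale, 32 members rose and 47 fell, beside 8.38% and 19.3% of all genes. Changes are therefore given relative to the other genes of the seed, on the TMM scale. The CPM values printed beside them are scaled by library totals. From 15 to 28 DAF their ratio therefore generally lies below the fitted change, by about 0.37 on the log2 scale. The SE and p of a gene take their spread from all libraries, including the dissected tissues that the rule used. They do not measure the spread of the whole seed libraries alone. Fitted alone, the 9 whole seed libraries gave 50 rises and 36 falls among the members, with no share of all genes in that fit given beside them. A missing call therefore does not show a steady level. All 200 members passed the filter on low counts through the seed coat, and 2 of them had 3 counts or fewer in every whole seed library.

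The shorter intervals gave fewer calls. From 15 to 21 DAF, 19 members rose and 10 fell, beside 4.71% and 4.26% of all genes (8.98% in either direction). From 21 to 28 DAF, 21 rose and 14 fell, beside 5.15% and 3.89% (9.04% in either direction). An unadjusted edgeR p under 0.05 was found in 57 members in the first interval and 61 in the second. Of all genes, 29.8% and 30.3% had one. Leaving out replicate 2 of 15 DAF lowered the count of calls from 15 to 21 DAF from 29 to 18. Leaving out replicate 2 of 28 DAF lowered that from 21 to 28 DAF from 35 to 23. Of the members that rose over the whole interval, 14 passed the test from 15 to 21 DAF and 18 from 21 to 28 DAF. Of those that fell, 4 and 11 did. For comparison, of the 200 most abundant seed coat-preferential genes highest at 35 DAF, 87 rose and 16 fell from 15 to 28 DAF, with a median log2 fold change of 0.77. Of the 200 most abundant of those highest at 42 DAF, 49 rose and 19 fell, with a median of 0.34, nearer to the members.

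**Figure D4:**
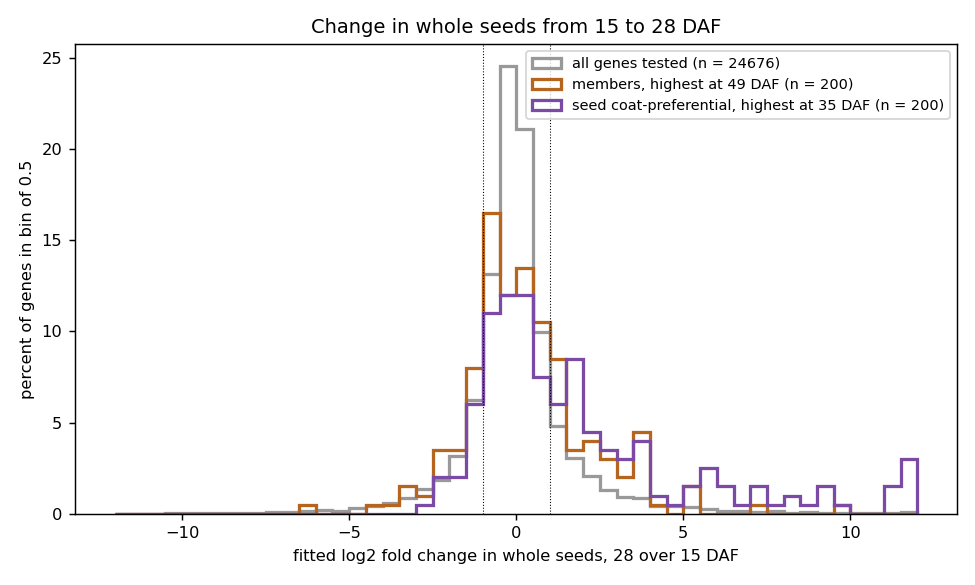
Distribution of the fitted log2 fold change in whole seeds from 15 to 28 DAF (horizontal axis, bins of 0.5, values beyond 12 placed in the last bin) as a percent of genes (vertical axis), for all genes tested (grey), the 200 members (brown) and the 200 seed coat-preferential genes highest at 35 DAF (purple). Dotted lines mark a log2 fold change of -1 and 1, and members lie on both sides, with medians of 0.14 for the members, 0.77 for the genes highest at 35 DAF and -0.05 for all genes.

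The largest rises in whole seeds came from genes at low levels at 15 DAF. Solyc02g031950.3.1 had 2 counts in all at 15 DAF and 19.5, 25.1 and 32.3 CPM at 28 DAF, a ratio of 765 with a 95% Poisson interval from 212 to 6313 that covers counting error only (edgeR adjusted p = 2.24e-07). In the seed coat its means were 39.5, 184 and 312 CPM at 35, 42 and 49 DAF, so that it was higher at each sampled age. Solyc02g014730.3.1, listed under fatty acid metabolism, had 1.04, 0.473 and 0.744 CPM at 15 DAF, 14.4, 2.96 and 20.9 CPM at 21 DAF and 70.4, 109 and 101 CPM at 28 DAF, with a log2 fold change of 7.29 ± 0.72 (SE, edgeR adjusted p = 5.24e-12) over the interval. It was at 88.6, 118 and 192 CPM in seed coats of 35 DAF, 127, 69.3 and 28.3 CPM at 42 DAF and 631, 976 and 920.5 CPM at 49 DAF, lower at 42 DAF than before and after. Solyc09g091510.3.1 had 0.284, 0.237 and 0.837 CPM at 15 DAF and 13.7, 17.5 and 18.4 CPM at 28 DAF, with a log2 fold change of 5.49 ± 0.74 (SE, edgeR adjusted p = 1.87e-08). Solyc03g033690.2.1, among the 15 leading members, had 4.30, 3.13 and 3.86 CPM at 15 DAF, 33.1, 23.3 and 39.1 CPM at 21 DAF and 107, 98.5 and 108 CPM at 28 DAF, with a log2 fold change of 5.16 ± 0.69 (SE, edgeR adjusted p = 5.59e-08), and went on to 233 CPM in the seed coat of 35 DAF. Solyc01g109320.4.1 had 0.426, 0.532 and 0.372 CPM at 15 DAF and 14.2, 9.34 and 13.2 CPM at 28 DAF, with a log2 fold change of 5.14 ± 0.75 (SE, edgeR adjusted p = 6.17e-07). In these 5 genes the libraries of 15 and 28 DAF did not overlap, which also held for 75% of the members and 71.9% of all genes tested.

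The largest falls belonged to genes that were lowest around 28 to 35 DAF and far higher at 49 DAF. Solyc06g074710.1.1 had 305, 324 and 349 CPM at 15 DAF, 72.4, 118 and 94.5 CPM at 21 DAF and 6.51, 1.05 and 2.70 CPM at 28 DAF, with a log2 fold change of -6.22 ± 0.66 (SE, edgeR adjusted p = 2.12e-11). Its seed coat means of 35, 42 and 49 DAF were 1.94, 266 and 1750.3 CPM. Its level was thus lowest where the whole seed and seed coat series meet. Solyc08g074683.1.1 had 355, 441 and 465 CPM at 15 DAF and 22.6, 6.73 and 14.8 CPM at 28 DAF, with a log2 fold change of -4.48 ± 0.50 (SE, edgeR adjusted p = 3.88e-09), and seed coat means of 0.517 and 180.0 CPM at 35 and 49 DAF. Solyc04g079890.4.1 had 9.55, 5.15 and 6.51 CPM at 15 DAF and 0.462, 0.275 and 0.275 CPM at 28 DAF, with a log2 fold change of -4.0 ± 0.69 (SE, edgeR adjusted p = 5.50e-06). Solyc06g064520.4.1 had 172, 122 and 128 CPM at 15 DAF and 15.7, 9.34 and 11.5 CPM at 28 DAF, with a log2 fold change of -3.16 ± 1.01 (SE, edgeR adjusted p = 0.00994). This call was lost with DESeq2 (adjusted p = 0.121), while the adjusted p of the other alternatives lay between 7.25e-07 and 0.045. The lowest of these came from edgeR fitted to the whole seed libraries alone. It went from 10.4, 10.3 and 21.5 CPM in seed coats of 35 DAF to 287, 308 and 274 CPM at 49 DAF. Solyc04g082030.1.1 had 17.2, 20.7 and 13.9 CPM at 15 DAF and 1.76, 1.42 and 1.47 CPM at 28 DAF, with a log2 fold change of -3.09 ± 0.85 (SE, edgeR adjusted p = 0.00253), and 3.65, 99.7 and 645 CPM in the seed coat.

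The levels of the members that fell and rose in whole seeds are given as a description, since the calls were made on the same whole seed libraries. Those that fell had medians of 62.5 and 14.7 CPM in whole seeds of 15 and 28 DAF, and of 15.3 and 326 CPM in seed coats of 35 and 49 DAF. In the same order, those that rose had 7.23, 33.4, 70.4 and 626 CPM. The 126 members without a call had 51.9, 38.3, 52.4 and 454 CPM. Of 80 members with large steps throughout in the seed coat, 14 rose and 17 fell in whole seeds. Of the 14 with a minimum at 42 DAF, 6 rose and the other 8 had no call, and of the 61 with an early step 14 rose and 9 fell. Many members were thus present well before the seed coat was dissected. In CPM by library totals, the highest whole seed mean was above the seed coat mean of 35 DAF in 99 members. That count depends on the scaling, as given above for the sums. The highest whole seed mean was under 1 CPM in 11. It exceeded even the mean of 49 DAF in 5.

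Those 5 members were highest in seeds of 15 DAF and, in the seed coat, at 49 DAF. Solyc11g069430.2.1 had 758, 763 and 654 CPM at 15 DAF and 514, 706 and 776 CPM at 49 DAF, and the 2 sets of libraries overlapped. Solyc07g066310.3.1, listed under photosystem II assembly, had 220.2, 223 and 228 CPM at 15 DAF and 91.0, 68.9 and 82.8 CPM at 28 DAF, with a log2 fold change of -1.10 ± 0.36 (SE, edgeR adjusted p = 0.0103), a call that DESeq2 did not make, and 141, 215 and 219 CPM in the seed coat of 49 DAF. Solyc01g007070.3.1 had 177, 209.7 and 218 CPM at 15 DAF and 74.1, 64.4 and 78.5 CPM at 28 DAF, with a log2 fold change of -1.11 ± 0.29 (SE, edgeR adjusted p = 0.00137), and 163, 218 and 206 CPM at 49 DAF. Solyc03g083910.5.1 had 254, 303 and 281 CPM at 15 DAF and 188, 241 and 205 CPM at 49 DAF, and Solyc08g074683.1.1, named above, had a mean of 420.4 and 180.0 CPM. Whole seeds contain all tissues, so that a level in a whole seed and one in a dissected seed coat are not the same quantity.

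Annotation was at hand for few members. The study's supplementary tables, of which a part was held, list 36 of the 200 members under gene ontology terms, and describe 4, 2 of them as unknown proteins, so that 37 carry some annotation other than that. The remaining 163 carry no function here. The terms are those enriched in modules that were built from these same libraries, and the groups of terms below were formed after the members' values had been seen, so they are not independent evidence of a direction. For each group the genes listed in all modules are counted beside the members.

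Phenolic compounds, which colour and harden seed coats, were represented by several members. Of 31 genes listed under proanthocyanidin synthesis, cinnamic acid synthesis or the regulation of syringal lignin, 23 were seed coat-preferential and 6 are members. In whole seeds from 15 to 28 DAF 6 of the 31 rose and 6 fell. The 4 proanthocyanidin members differed from each other. Solyc08g080040.4.1 had 123, 112 and 93.0 CPM at 35 DAF, 1389, 839 and 367 CPM at 42 DAF and 1661, 1099.6 and 1093 CPM at 49 DAF, and rose in whole seeds from 1.78, 1.51 and 2.39 CPM to 11.3, 21.1 and 18.1 CPM, with a log2 fold change of 3.52 ± 0.34 (SE, edgeR adjusted p = 6.44e-13). Solyc12g006360.3.1 had 98.9, 93.6 and 81.8 CPM at 35 DAF and 1062, 936 and 891 CPM at 49 DAF, and fell in whole seeds from 97.7, 89.4 and 94.2 CPM to 27.4, 25.7 and 33.8 CPM, with a log2 fold change of -1.32 ± 0.38 (SE, edgeR adjusted p = 0.0036). Solyc12g049300.2.1 fell likewise at a lower level, from 28.2, 30.8 and 27.9 CPM to 5.13, 2.89 and 4.03 CPM in whole seeds, with a log2 fold change of -2.48 ± 0.42 (SE, edgeR adjusted p = 9.66e-06), and had 322, 258 and 248 CPM in the seed coat of 49 DAF. Solyc09g065100.3.1 was nearly level, with 155, 158 and 150.0 CPM at 35 DAF and 238, 248 and 256 CPM at 49 DAF, which do not overlap. Genes listed under the same process thus rose and fell in the young seed, and all were highest in the seed coat at 49 DAF, as the rule required.

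Solyc05g056170.3.1, listed under the synthesis of cinnamic acid, the first intermediate on the way from phenylalanine to lignin and tannins, had 17.1, 17.2 and 22.7 CPM at 35 DAF, 326, 106 and 60.0 CPM at 42 DAF and 1148, 2067 and 1879 CPM at 49 DAF. In whole seeds it rose from 3.40, 4.14 and 3.07 CPM at 15 DAF to 28.7, 21.8 and 28.8 CPM at 28 DAF, with a log2 fold change of 3.27 ± 0.65 (SE, edgeR adjusted p = 4.00e-05). Solyc03g006700.3.1, listed under the regulation of syringal lignin and under the response to hypoxia, had a mean of 11.2 CPM at 35 DAF, 101, 59.4 and 23.9 CPM at 42 DAF and 318, 459 and 368 CPM at 49 DAF. It rose in whole seeds from 0.331, 0.118 and 0.186 CPM to 2.26, 2.52 and 2.20 CPM, with a log2 fold change of 3.74 ± 0.74 (SE, edgeR adjusted p = 4.73e-05). In both genes no library of 49 DAF overlapped with an earlier seed coat library.

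Cell wall terms (pectin catabolism, xylan and xyloglucan metabolism, wall biogenesis and fruit dehiscence) listed 61 genes, of which 27 were seed coat-preferential and 5 are members. In whole seeds 7 of the 61 rose and 10 fell from 15 to 28 DAF, and 0 of the 5 members passed the test in edgeR, with 0 at an unadjusted p under 0.05 and 0 by DESeq2. Solyc07g043240.4.1, listed under the breakdown of pectin, the gel-like polysaccharide between cells, had 9.71, 9.54 and 7.60 CPM at 35 DAF, 412, 123 and 56.8 CPM at 42 DAF and 567, 667 and 725 CPM at 49 DAF, and had no more than 1.02 CPM in any whole seed. Solyc10g008030.4.1, listed under xylan, a hemicellulose of thickened walls, had 0.405, 0.313 and 0.444 CPM at 35 DAF, 90.9, 114 and 33.7 CPM at 42 DAF and 200.1, 172 and 178 CPM at 49 DAF. Solyc08g081620.4.1, listed under fruit dehiscence, the splitting of fruits along a layer of separating cells, had 21.6, 4.75 and 0.355 CPM at 35 DAF, 363, 1284 and 895 CPM at 42 DAF and 648, 1322 and 1781 CPM at 49 DAF. In it, unlike most members, replicate 1 was the lowest library at 42 DAF and the highest at 35 DAF. These 3 wall genes were nearly absent from whole seeds, whereas the xyloglucan genes Solyc01g081060.4.1 (81.7, 80.2 and 116 CPM at 35 DAF and 210.4, 420.3 and 355 CPM at 49 DAF) and Solyc04g008210.2.1 (132, 94.1 and 68.4 and 207, 158 and 199 CPM) were present throughout, at 100.1 and 86.4 CPM in whole seeds of 15 DAF.

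Fatty acid terms listed 52 genes, 6 of them members. Of the 52, 7 rose and 7 fell in whole seeds from 15 to 28 DAF, and of the 6 members 2 rose and the other 4 had no call. Solyc02g081190.4.1, listed under the response to fatty acids and under oxidation-reduction, is the tenth most abundant member, with 519, 510.3 and 515 CPM at 35 DAF, 5016, 2663 and 1284 CPM at 42 DAF and 4701, 3016 and 2600.4 CPM at 49 DAF. It rose in whole seeds from 57.7, 52.9 and 45.0 CPM to 272, 238 and 226 CPM, with a log2 fold change of 2.62 ± 0.69 (SE, edgeR adjusted p = 0.00164). Solyc02g014730.3.1 was described above. Solyc01g095750.2.1 had 22.8, 26.2 and 19.2 CPM at 35 DAF and 874, 1172 and 1060.4 CPM at 49 DAF, and Solyc04g078090.3.1, which is also listed under hypoxia, had 124, 73.2 and 67.1 and 640.0, 571 and 692 CPM. Solyc03g006140.3.1 and Solyc05g005700.4.1 had small steps, with means of 339 and 134 CPM at 35 DAF and 785 and 249 CPM at 49 DAF.

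Terms of the response to abscisic acid, salt, hypoxia and water deprivation listed 140 genes, 8 of them members. In whole seeds 34 of the 140 rose and 34 fell, and of the members 3 rose and 2 fell, with 4 called by DESeq2. Solyc02g062390.3.1, described as the abscisic acid and stress-inducible protein TAS14, a dehydrin first known from salt-stressed tomato, had 5.58, 3.58 and 4.40 CPM at 35 DAF, 28.1, 8.55 and 6.83 CPM at 42 DAF and 149, 312 and 265 CPM at 49 DAF. The ratio of its 49 and 42 DAF means was 16.7, and it rose in whole seeds from 0.142, 0.473 and 0.651 CPM to 1.57, 1.60 and 1.42 CPM, with a log2 fold change of 2.21 ± 0.83 (SE, edgeR adjusted p = 0.0268). Solyc09g005970.1.1, listed under salt and hypoxia, had 1.84, 4.84 and 7.11 CPM at 35 DAF, 109.7, 58.0 and 19.9 CPM at 42 DAF and 453, 611 and 606 CPM at 49 DAF, and rose in whole seeds from 0.804, 1.24 and 1.26 CPM to 4.16, 7.65 and 7.19 CPM, with a log2 fold change of 2.90 ± 0.61 (SE, edgeR adjusted p = 1.24e-04). Solyc05g007770.3.1, listed under salt and abscisic acid, had 301, 78.8 and 68.0 CPM at 42 DAF and 347, 673 and 725 CPM at 49 DAF. Solyc01g088400.4.1 was listed under abscisic acid and was at 1.35, 0.896 and 0.622 CPM at 35 DAF, 323, 82.7 and 25.4 CPM at 42 DAF and 313, 250.3 and 255 CPM at 49 DAF. It fell in whole seeds from 3.78, 3.61 and 5.49 CPM to 0.647, 0.870 and 1.05 CPM, with a log2 fold change of -1.95 ± 0.76 (SE, edgeR adjusted p = 0.035), a call that DESeq2 did not make.

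Senescence and proteolysis, which belong to the last phase of a tissue that dies at maturity, were the terms of 3 members, of 27 genes listed. In whole seeds 4 of the 27 rose and 4 fell, with 0 of the 3 members past the thresholds in edgeR, 1 at an unadjusted p under 0.05 and 0 by DESeq2. Solyc02g078910.3.1, listed under floral organ senescence, had 8.46, 13.7 and 19.0 CPM at 35 DAF, 742, 283 and 125 CPM at 42 DAF and 1301, 1531 and 1504 CPM at 49 DAF, with at most 3.36 CPM in a whole seed. Among these genes it differed most between the seed coat and the young seed. Solyc01g110110.3.1, listed under proteolysis, was in contrast abundant in all seeds, with 804, 784 and 802 CPM at 15 DAF and 1276, 1028 and 1147 CPM at 49 DAF, and Solyc02g069100.4.1, under the same term, had 27.5, 25.2 and 31.1 CPM at 35 DAF and 199.6, 169 and 171 CPM at 49 DAF.

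The term oxidation-reduction held 42 genes, 8 of them members, of which 4 rose and 2 fell in whole seeds, against 6 and 4 of all 41 tested, and 5 of the members were called by DESeq2. Solyc09g089580.4.1 had 42.7, 52.3 and 62.4 CPM at 35 DAF, 614, 206 and 120.0 CPM at 42 DAF and 916, 2122 and 2114 CPM at 49 DAF. Solyc02g083860.3.1 had 61.3, 56.7 and 46.0 CPM at 35 DAF and 1615, 1446 and 1292 CPM at 49 DAF, and fell in whole seeds from 21.0, 26.3 and 30.1 CPM to 5.54, 6.92 and 6.78 CPM, with a log2 fold change of -1.63 ± 0.34 (SE, edgeR adjusted p = 8.13e-05). Solyc03g095900.4.1 had 70.6, 45.5 and 10.1 and 571, 665 and 642 CPM at the same ages and rose in whole seeds from 1.37, 0.710 and 0.651 CPM to 5.03, 7.51 and 7.65 CPM, with a log2 fold change of 3.24 ± 0.66 (SE, edgeR adjusted p = 5.62e-05). The members of this broad term therefore did not share 1 direction in the young seed.

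Of the other annotated members, Solyc01g096670.4.1 was listed under the defence against bacteria as well as oxidation-reduction. It had 28.2, 59.1 and 65.1 CPM at 35 DAF, 91.6, 55.0 and 33.2 CPM at 42 DAF and 386, 680.5 and 633 CPM at 49 DAF, and rose in whole seeds from 19.0, 26.1 and 23.3 CPM to 46.0, 50.5 and 50.7 CPM, with a log2 fold change of 1.48 ± 0.43 (SE, edgeR adjusted p = 0.0045). Solyc02g063330.3.1, under the same defence term, had 58.0, 51.4 and 46.8 CPM at 35 DAF and 592, 552 and 745 CPM at 49 DAF. Solyc05g053030.1.1, listed under dephosphorylation, the removal of phosphate groups, had 268, 198 and 134 CPM at 42 DAF and 537, 822 and 848 CPM at 49 DAF, and rose in whole seeds with a log2 fold change of 2.17 ± 0.47 (SE, edgeR adjusted p = 2.56e-04). Solyc02g063420.3.1, described as a hydroxyproline-rich glycoprotein, a family that includes structural proteins of the plant cell wall, had 40.3, 31.7 and 31.1 CPM at 35 DAF and 144, 165 and 225 CPM at 49 DAF. It rose in whole seeds from 9.41, 8.58 and 3.72 CPM to 12.1, 14.0 and 16.1 CPM, with a log2 fold change of 1.34 ± 0.44 (SE, edgeR adjusted p = 0.0119), a call that DESeq2 did not make. Solyc09g025310.4.1, listed under secondary shoot formation, had 5.30, 5.44 and 4.97 CPM in whole seeds of 15 DAF, 20.3, 21.7 and 27.4 CPM in seed coats of 35 DAF and 272, 348 and 507 CPM at 49 DAF.

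Solyc09g089580.4.1 is also 1 of 14 identifiers kept as markers of ripening fruit, a tissue that touches the seed. Of these 14, 3 are members, the others being Solyc01g099190.4.1 (139, 91.5 and 83.9 CPM at 35 DAF and 399, 798 and 757 CPM at 49 DAF) and Solyc12g008840.2.1 (24.8, 29.5 and 32.2 and 172, 292 and 252 CPM). The whole list summed to 472 to 648 CPM in seed coats of 35 DAF, 1703 to 2559.5 CPM in those of 42 DAF and 2696 to 4319.9 CPM in those of 49 DAF. Of the 11 that are no members, 8 had a higher mean at 49 than at 35 DAF, and they summed to means of 354, 1459 and 1117 CPM. The sum of these 11 was highest at 42 DAF, but 6 of them were each highest at 49 DAF. Most of this sum came from Solyc10g006880.3.1 at 42 and 49 DAF, with means of 930 and 676 CPM. Solyc07g055920.4.1 had 392 and 193 CPM at these ages. Fruit tissue adhering to the dissected seed coats was not measured, and its part in the members' levels was not tested.

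Some members stand in adjacent rows of the deposited table. There were 8 such runs with 17 members, the longest of 3. Solyc04g150160.1.1 and Solyc04g150161.1.1, although numbered in sequence, are not among them, since other genes stand between their rows. Solyc10g017970.1.1 and Solyc10g017980.1.1 ran in parallel from a very low level, with seed coat means of 0.522, 419 and 1958 CPM and of 0.254, 268 and 1468 CPM at 35, 42 and 49 DAF. In whole seeds both fell by similar amounts from 15 to 28 DAF, Solyc10g017970.1.1 from 5.73, 19.3 and 10.9 CPM to 2.77, 1.22 and 2.34 CPM with a log2 fold change of -2.12 ± 0.66 (SE, edgeR adjusted p = 0.00758), and Solyc10g017980.1.1 with a log2 fold change of -2.04 ± 0.70 (SE, edgeR adjusted p = 0.0158), calls that DESeq2 did not make. Solyc12g150131.1.1 and Solyc12g150132.1.1 were nearly equal, with 1273, 1011 and 1156 CPM and 1193, 957 and 1094 CPM in the libraries of 49 DAF. How Salmon divides reads between such neighbours, if their sequences are alike, is uncertain, and equal values in these pairs may not be separate measurements.

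Other neighbours differed. In the run of 3, Solyc09g007910.4.1 had means of 247, 79.2 and 1411 CPM at 35, 42 and 49 DAF, Solyc09g007920.4.1 582, 604 and 7083 CPM and Solyc09g007930.2.1 9.40, 19.9 and 197 CPM. All were far higher at 49 than at 42 DAF, but at 35 DAF the level of Solyc09g007910.4.1 was above that of 42 DAF and that of Solyc09g007930.2.1 below it. Solyc06g064510.2.1 and Solyc06g064520.4.1 were both highest in the seed coat at 49 DAF, with 1083, 836 and 891 and 287, 308 and 274 CPM, and went opposite ways in whole seeds. Solyc06g064510.2.1 rose from 1.89, 2.19 and 2.28 CPM at 15 DAF to 20.0, 27.9 and 28.3 CPM at 28 DAF, with a log2 fold change of 3.96 ± 0.39 (SE, edgeR adjusted p = 1.64e-12), whereas Solyc06g064520.4.1 fell, as given above. The other runs were Solyc01g109320.4.1 with Solyc01g109330.3.1, Solyc02g093250.3.1 with Solyc02g093270.4.1, Solyc06g053610.3.1 with Solyc06g053620.4.1, and Solyc10g086180.2.1 with Solyc10g086190.3.1, with 49 DAF means between 266 and 2819 CPM. The members were spread over all 12 chromosomes in their identifiers, from 9 on chromosome 5 to 24 on chromosome 3, that is 0.378% and 0.723% of the genes listed there.

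In the inner tissues the members were low, as the rule required, but not uniformly so. Their summed level was 519 to 2341 CPM in the embryo libraries. In endosperms other than those of 49 DAF and MG it was 1124 to 2470.1 CPM. The endosperm libraries of 49 DAF had 3221, 7742 and 11472 CPM and those of MG 7746, 3706 and 2243 CPM, with a wide spread between replicates. The highest inner-tissue mean was that of endosperm at 49 DAF in 105 of the 200 members, of some endosperm stage in 173, and of an embryo stage in 27. Low levels were measured widely, and no member had 3 counts or fewer in every endosperm library of 49 DAF.

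The members most exclusive to the seed coat were, by the rule's own ratio, Solyc08g079890.2.1, Solyc07g043240.4.1 and Solyc10g081300.1.1. Solyc08g079890.2.1 had 372, 414 and 477 CPM in seed coats of 49 DAF and 0.326 CPM in its highest inner group, a ratio of 1293, and it was at 61.0, 65.7 and 60.7 CPM in whole seeds of 15 DAF. Solyc07g043240.4.1, the gene under pectin breakdown, had a ratio of 668, and Solyc10g081300.1.1 one of 550.0 with 252, 380.4 and 417 CPM at 49 DAF. Among members with an embryo stage as the highest inner group, Solyc10g081510.2.1, of the 15 leading members, had a mean of 249 CPM in embryos of 35 DAF and a ratio of 18.4. Solyc03g080180.4.1 had 109 CPM in embryos of 35 DAF and a ratio of 11.1. In embryos of 49 DAF 5 members had 3 counts or fewer in every library, and at the orange stage 64 did.

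Gene by gene, the level in endosperm of 49 DAF was a small share of that in the seed coat. Relative to the 49 DAF seed coat mean it had a median of 0.691% in replicate 1, 2.63% in replicate 2 and 3.18% in replicate 3, and at MG of 1.69%, 1.19% and 0.428%. In endosperm of 42 DAF the medians were 0.465%, 0.416% and 0.566%, and in embryo of 49 DAF 0.111%, 0.117% and 0.107%. Replicate 3 was the highest of the 49 DAF endosperms in 169 members (84.5%), against 41.8% of the 15548 genes with a mean above 1 CPM there. The seed coat-preferential genes highest at 35 DAF were ordered alike in these libraries, with 287, 1254 and 1544 CPM. Solyc04g150160.1.1 had 244, 1660.0 and 3380.1 CPM in the 3 endosperms of 49 DAF, and Solyc09g007920.4.1 754, 458 and 664 CPM. The latter was similar in all 3 libraries, unlike the former. Whether seed coat remained on these endosperms or the endosperm itself held the transcripts was not tested. With endosperm of 49 DAF and MG left out of the rule, an alternative chosen after seeing the data, 803 genes met it in place of 752, all 200 members among them.

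**Figure D5:**
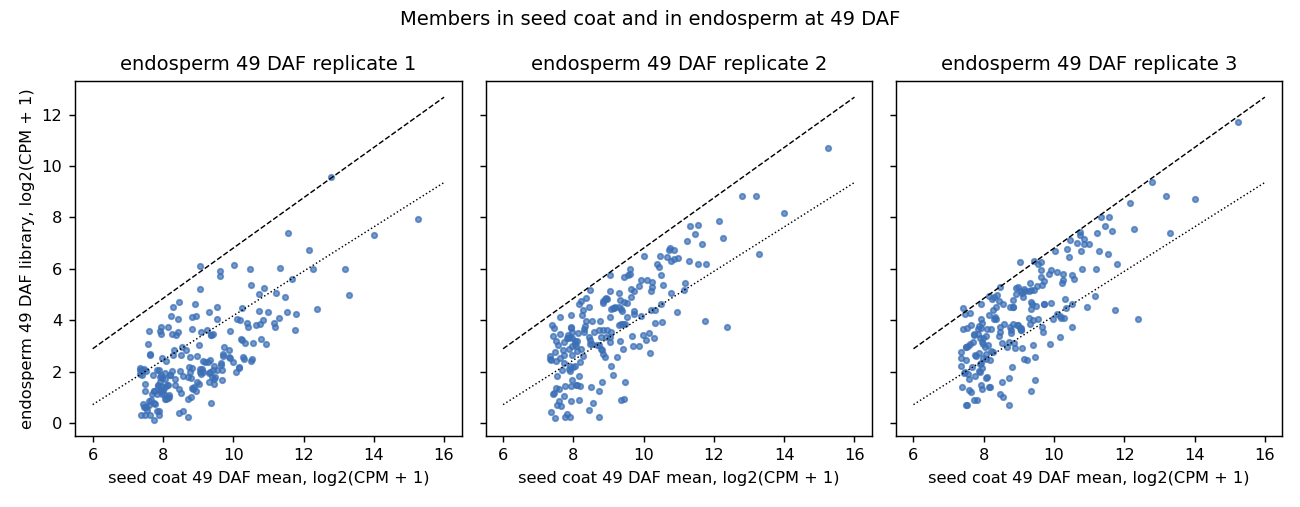
Level of each member (points, n = 200) in each endosperm library of 49 DAF (vertical axis) against its mean in seed coats of 49 DAF (horizontal axis), both as log2(CPM + 1), with 1 panel per replicate. The dashed line marks 10% and the dotted line 1% of the seed coat mean, and the points lie lowest in replicate 1 (median 0.691%) and highest in replicate 3 (median 3.18%).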

How the data were processed

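Seeds of 10 to 20 per replicate were dissected by the authors and sequenced on a BGISEQ-500 as single-end reads, which the authors quantified with Salmon against the ITAG 4.0 gene models. The deposited table holds estimated counts of 33976 genes in 84 libraries, neither scaled nor filtered by the authors (10.5% of values are not whole). No genome sequence or annotation with these identifiers was used, so positions, lengths and sequences are not given. Library totals and their limits are given with the results, and the replicates are biological per the study's methods.

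CPM came from library totals in Python 3.11.15 with pandas 2.3.3. Counts, rounded to whole numbers, were filtered by filterByExpr, scaled by TMM and fitted with 1 coefficient per group over all 84 libraries by the quasi-likelihood test of edgeR 4.0.16 (R 4.3.3), with Benjamini-Hochberg adjustment over 24676 genes, an absolute log2 fold change above 1 and adjusted p under 0.05. Only whole seed stages were compared. Tested on simulated counts of the 28 against 15 DAF comparison (22568 genes), the fit recovered 200 of 200 planted changes with 2 wrong calls. The planted changes were large and lay in well-counted genes. All genes were given the same spread and no other difference between groups. The simulation therefore shows that the code runs as meant, and not how many calls are missed or wrong in the real data. Alternatives were DESeq2 1.42.0, library totals, no filter, whole seeds alone, a replicate block, no fold threshold, other limits of the rule and each replicate left out.

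The members, gene lists and tests were chosen with earlier results of these data known. Genes named are the 15 most abundant members at 49 DAF, the 5 largest rises and 5 largest falls in whole seeds, the 5 largest ratios of 49 to 42 DAF, the 3 largest coefficients of variation at 49 DAF, the genes at the limits of the rule, and neighbouring members. Members with ontology terms, those higher in whole seeds than at 49 DAF, those of the largest or smallest ratio to inner tissue and the fruit markers were named after their values were seen. The keyword lists and promoter motifs were not used here, since descriptions were held only in part and no sequence matched.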

Additional observations from a re-analysis of the deposited data

How the results depend on the processing

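The number of members that changed in whole seeds from 15 to 28 DAF was 74, between 61 and 86 under the alternatives, and that from 15 to 21 DAF 29 and from 21 to 28 DAF 35. Fitting the 9 whole seed libraries alone raised these last counts to 49 and 60. Shares of all genes are given above only for the main fit and for library totals. The other counts therefore show how far the calls move, and not an excess of the members. Leaving out 1 replicate gave 61 to 67 members from 15 to 28 DAF, 18 to 28 from 15 to 21 DAF and 23 to 31 from 21 to 28 DAF, the lowest of the shorter intervals without replicate 2 of 15 DAF and without replicate 2 of 28 DAF. The replicate number of the sample titles as a block gave 73, 29 and 36 members. In some ripening groups the deposited columns are numbered otherwise than the titles. Between whole seed stages the correlations of same-numbered deviations ran from -0.223 to 0.387, above 0.1 in 4 of 9 pairs. Those of other numbers ran from -0.389 to 0.263, so no steady pairing of the whole seed stages was seen. Whether the numbers pair tissues dissected at the same age was not tested. With library totals the split from 15 to 28 DAF turned from 43 higher and 31 lower to 32 higher and 47 lower. Of 110 alternative values for the 10 largest changes, 109 kept the call, 1 lost it (Solyc06g064520.4.1 with DESeq2) and 0 reversed.

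The rule gave 492 genes with 20 times in place of 10 times, and between 679 and 1060 under the other alternatives, with 714 to 776 when a seed coat replicate was left out. The members summed to 31084 CPM at 35 DAF when scaled by TMM factors. Without the 10 most abundant of them, the sums of 35 and 49 DAF were 15759 and 127476 CPM. In the other alternatives the sums moved by less than 1 SD. Low whole seed levels were limited by depth, at 3 counts or 0.177 CPM.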
